A study of Mus musculus with 16 samples.

Results

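The plasminogen activator Plau (urokinase), its cell-surface receptor Plaur, the related activator Plat (tissue plasminogen activator), the serpins Serpine2 and Serpinf1, and the membrane protease Fap (fibroblast activation protein) were followed across 16 left ventricles. These 6 genes, of 24982 entries in the count table, were picked by name with the genotype comparison of the same mice already known. The levels of Plau and Fap, higher in the knockout while matrix genes were lower, were part of the reason for the choice. Their genotype differences are therefore given as values without a test. What the choice did not use was tested: the difference between the sexes, the dependence of the genotype difference on sex, and the variation between mice of 1 genotype and sex.

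The mice carried either Tln2-null; Tln1-specific CF knockout (8 mice, 4 males and 4 females, called the knockout) or Tln2-null alone (8 mice, 4 males and 4 females). All were C57BL/6, and both genotypes are labelled Tln2-null, so the added Tln1 deletion was compared on a background labelled as lacking talin-2, and no talin-intact mice were analysed. Tamoxifen was given intraperitoneally for 5 days. From 2 weeks after it, all mice carried an osmotic pump with angiotensin II (AngII), a hormone that raises blood pressure and drives cardiac fibrosis, for 8 weeks. No mice without AngII were analysed here. The abbreviation CF is used as the labels give it. The sources used here do not give the driver of the Tln1 deletion, the exons it removes or the age of the mice. Whole ventricle was sequenced, 1 library per mouse, so fewer cells of a type and less RNA per cell cannot be told apart in any level below.

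Urokinase and tissue plasminogen activator are serine proteases that cut plasminogen, a liver-made plasma protein, to the broad protease plasmin. Urokinase does so at cell surfaces, held by the receptor Plaur, and tissue plasminogen activator mainly on fibrin. Plasmin degrades fibrin and several matrix glycoproteins and can activate matrix metalloproteinases, and serpins such as protease nexin-1 (Serpine2) block both activators. Serpinf1 encodes PEDF, a secreted serpin that inhibits no protease and binds collagen. Fap is a prolyl-specific membrane serine protease of activated fibroblasts that cleaves gelatin, denatured collagen and α2-antiplasmin, the main inhibitor of plasmin.

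The activators are trypsin-like proteases, while Fap belongs to the prolyl oligopeptidase family, and the coding stretch around the catalytic serine is shown to let these families be compared. The stretches below are 45 bases each, spliced across 1 intron and read 5′ to 3′ from GENCODE M21 transcripts on GRCm38, with the serine codon in capitals. Dpp4, the nearest relative of Fap, is included because it lies beside Fap in the genome and because of its values below.
Plau: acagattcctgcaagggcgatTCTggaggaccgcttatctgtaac
Plat: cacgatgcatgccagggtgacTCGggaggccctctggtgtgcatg
Fap: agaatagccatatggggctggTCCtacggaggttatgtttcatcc
Dpp4: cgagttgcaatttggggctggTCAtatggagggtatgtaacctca
The Plau stretch spans chr14:20841080-20842303 on the plus strand, with the serine at codon 378 of 433 in exon 11 of 11. The Plat stretch spans chr8:22780575-22781977 on the plus strand, with the serine at codon 510 of 559 in exon 14 of 14. The Fap stretch spans chr2:62504582-62512406 on the minus strand, with the serine at codon 624 of 761 in exon 22 of 26. The Dpp4 stretch spans chr2:62347894-62348521 on the minus strand, with the serine at codon 624 of 760, also in exon 22 of 26. Plau and Plat shared 28 of 45 bases (62.2 percent), Fap and Dpp4 shared 33 of 45 (73.3 percent), and Plau and Fap shared 17 of 45 (37.8 percent).

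The libraries held 11161766 to 19221673 counts. Levels are given as CPM, counts normalised to library size. A floor of 3 counts, the most that a count of 0 allows, came to between 0.156 and 0.269 CPM, depending on the library and for counting error only. Tln1 averaged 274 ± 31.3 CPM in the knockout and 289 ± 20.7 CPM in Tln2-null (SD, n = 8 each). Tln2 was still counted in both genotypes, at 67.1 ± 2.32 CPM in the knockout and 66.8 ± 7.25 CPM in Tln2-null. Counts over a whole gene in whole tissue check neither deletion closely. In 4 females (knockout replicates 3, 5 and 7 and Tln2-null replicate 4) reads of Y-linked genes reached 1.1 to 2.85 percent of the male mean. Omission of these 4 females leaves replicate 2 as the only knockout female. Differences within females then rest on that mouse, and in correlations it has no deviation from its own group mean. Clock genes stood apart in knockout replicate 8 and Tln2-null replicate 8. Heat shock genes stood apart in Tln2-null replicate 5. The mice are separate animals, and no pair of the 16 libraries was a duplicate. Cardiomyocyte markers led the tissue, with summed levels of 56500 to 67200 CPM in the knockout and 57900 to 63500 CPM in Tln2-null. All 30 matrix genes of the list used below were detected, with summed levels of 1780 to 4410 CPM in the knockout and 2540 to 5350 CPM in Tln2-null.

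Plau, on chromosome 14 (20836662 to 20843388, GRCm38.p6), was the member with the largest genotype difference. In knockout males it had 15.1, 13.2, 18.1 and 10.5 CPM and in knockout females 10.1, 12.3, 14.9 and 14.3 CPM. In Tln2-null males it had 6.56, 11, 10.2 and 9.78 CPM and in Tln2-null females 9.7, 6.59, 7.84 and 6.72 CPM. All 8 knockout mice were above the Tln2-null mean and 6 of 8 were above the highest Tln2-null mouse, so the groups overlapped, in that the knockout mice at 10.1 and 10.5 CPM lay below the highest Tln2-null male. The means were 13.6 ± 2.61 CPM in the knockout and 8.54 ± 1.82 CPM in Tln2-null (SD, n = 8 each). The log2 fold change was 0.67 ± 0.13 (± SE here and below), or 1.59-fold. It was 0.61 ± 0.19 in males and 0.73 ± 0.19 in females. These levels rest on 118 to 281 counts per knockout library and 95 to 189 per Tln2-null library. Omission of any 1 mouse left a log2 fold change of 0.61 to 0.73, and omission of the 4 females with Y-linked reads left 0.53. It was 0.70 without both libraries whose clock genes stood apart.

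Plaur, the receptor that holds urokinase at the cell surface (chromosome 7, 24460937 to 24475970), was the lowest of the 6. Its level ranged from 1.64 to 4.39 CPM in the knockout (median 2.24) and from 1.44 to 3.61 CPM in Tln2-null (median 2.25). The groups covered nearly the same range, and the log2 fold change was 0.17 ± 0.21. Only 25 to 87 counts per knockout library and 26 to 53 per Tln2-null library stood behind these levels. The value moved to 0.03 without knockout replicate 2, which had the highest level, to 0.07 without Tln2-null replicate 6, and to 0.39 without the 4 females with Y-linked reads. Without knockout replicate 5 it was 0.27 and without Tln2-null replicate 8 it was 0.26.

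Plat, the activator that acts mainly on fibrin (chromosome 8, 22757722 to 22782848), ranged from 20.5 to 42.9 CPM in the knockout (median 27.7) and from 26.0 to 42.6 CPM in Tln2-null (median 29.0). The groups overlapped over nearly their whole range. The means were 30.5 ± 7.26 CPM in the knockout and 31.0 ± 5.79 CPM in Tln2-null, a log2 fold change of -0.02 ± 0.14. It had no stable sign: it ran from -0.12 without knockout replicate 8 to 0.06 without knockout replicate 7, and was 0.19 without the 4 females with Y-linked reads. Per kilobase of exon, Plau made up 33.1 ± 8.34 percent of the summed Plau and Plat levels in the knockout and 23.2 ± 5.63 percent in Tln2-null. Among mice this share ran from 21.0 to 42.9 percent in the knockout and from 14.5 to 30.3 percent in Tln2-null.

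Serpine2, the serpin that blocks urokinase, tissue plasminogen activator and thrombin (chromosome 1, 79794317 to 79858665), ranged from 36.1 to 50.7 CPM in the knockout (median 42.8) and from 39.8 to 58.6 CPM in Tln2-null (median 48.1). Its log2 fold change was -0.14 ± 0.09, with overlapping groups, and it was -0.09 without Tln2-null replicate 5. Serpinf1, the collagen-binding PEDF (chromosome 11, 75410029 to 75422623), had 48.7, 33.4, 39.1 and 42.1 CPM in knockout males and 62.9, 55.5, 51.1 and 39.8 CPM in knockout females. It had 33.7, 46.2, 68.1 and 52.1 CPM in Tln2-null males and 47.3, 64.7, 84.0 and 38.5 CPM in Tln2-null females. Each genotype held mice from under 35 CPM to over 60 CPM, and the log2 fold change was -0.23 ± 0.16. It was -0.13 without Tln2-null replicate 6, which had the highest level, and -0.14 without Tln2-null replicate 5.

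Fap, the gelatin-cleaving protease of activated fibroblasts (chromosome 2, 62500936 to 62575509), had 10.2, 8.84, 9.71 and 10.9 CPM in knockout males and 8.78, 7.68, 10 and 11.9 CPM in knockout females. It had 7.1, 7.4, 8.22 and 7.65 CPM in Tln2-null males and 6.75, 8.76, 9.84 and 9.05 CPM in Tln2-null females. In males the knockout values lay above the Tln2-null values, while in females the genotypes overlapped. Plau lay apart in females (10.1 to 14.9 CPM in the knockout, 6.59 to 9.7 CPM in Tln2-null) and overlapped in males. The share of all genes lying apart within a sex was not counted, so nothing is read from this. For Fap the means were 9.74 ± 1.32 CPM in the knockout and 8.09 ± 1.06 CPM in Tln2-null, a log2 fold change of 0.27 ± 0.10, or 1.2-fold. It was 0.38 ± 0.14 in males and 0.16 ± 0.14 in females, 0.29 over both sexes without the 4 females with Y-linked reads, and 0.26 without both libraries whose clock genes stood apart. Omission of any 1 mouse left 0.22 to 0.32. It was 0.22 ± 0.10 in limma-voom and 0.19 ± 0.09 with the number in the sample title, of unstated meaning, as a covariate. For none of the 6 genes did all 8 knockout mice lie beyond all 8 Tln2-null mice, which was so for 0.0436 percent of the 13775 genes tested. The genotype fit called 0.0 percent of those genes. Nothing is read from either count, since the choice of the 6 genes used this contrast.

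**Figure D1:**
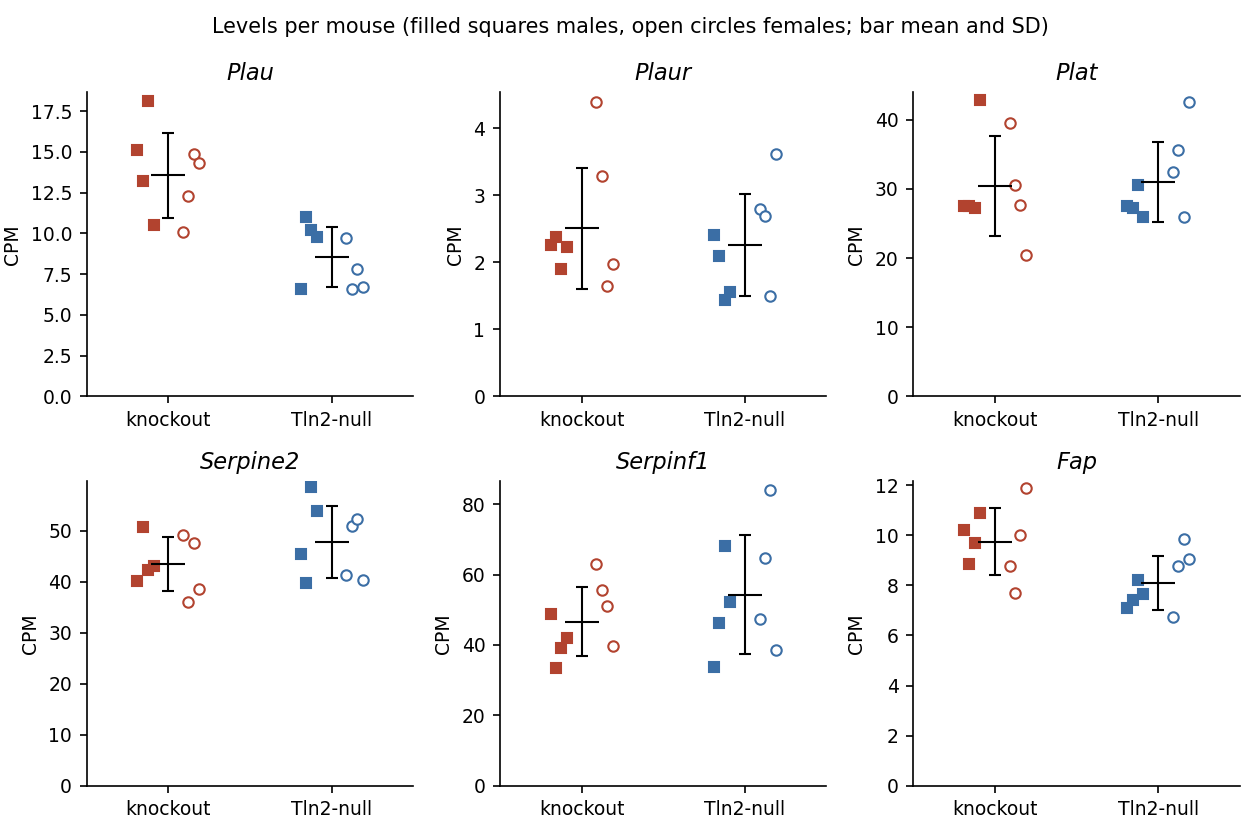
Level of each of the 6 genes in CPM (vertical axes, from 0) in every knockout and Tln2-null mouse, with filled squares for males, open circles for females and a bar for the mean and SD of 8 mice. Plau had the clearest offset, at 13.6 CPM in the knockout and 8.54 CPM in Tln2-null, while the 2 genotypes covered much the same range for Plat and Plaur.

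**Figure D2:**
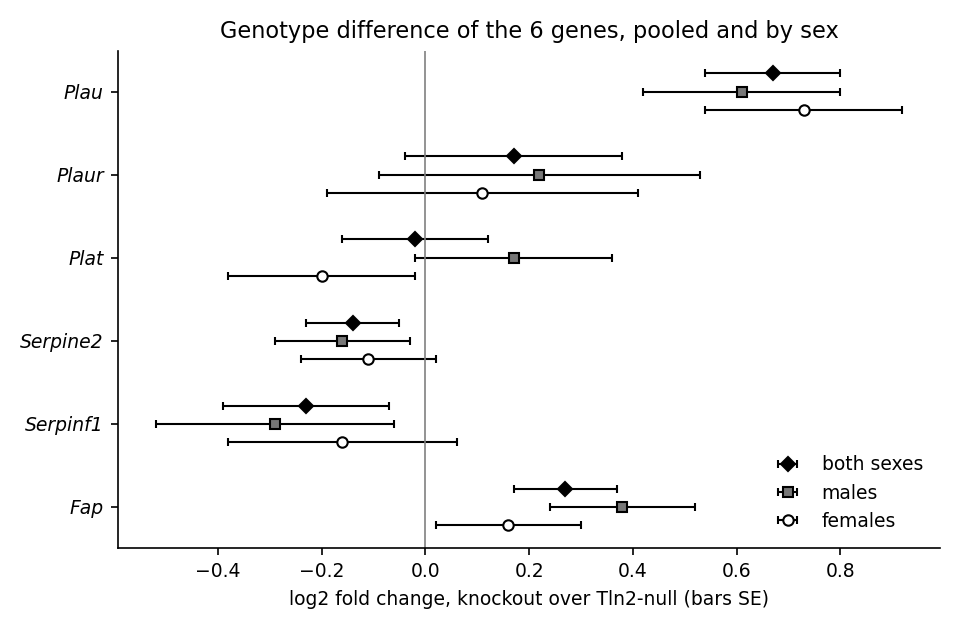
Log2 fold change of knockout over Tln2-null for the 6 genes (horizontal axis, bars SE), over both sexes (diamonds), in males (squares) and in females (circles). Plau had positive values near 0.67 in both sexes, Fap 0.38 in males and 0.16 in females, and Serpinf1 and Serpine2 negative values within about 1.5 SE of 0.

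Levels of different genes were set side by side per kilobase of exon, as the mean over all 16 mice. Serpinf1 had 22.1 ± 6.06 CPM per kilobase, Serpine2 19.7 ± 2.76, Plat 12.2 ± 2.51, Plau 4.72 ± 1.44, Fap 3.2 ± 0.515 and Plaur 1.58 ± 0.543 (SD). Among neighbours in this order, Plat and Plau were the only pair whose ranges over the mice did not overlap, at 8.12 to 17.0 and 2.8 to 7.71 CPM per kilobase. On the same scale Col3a1, the chain of type III collagen, had 60.1 CPM per kilobase, above all 6 genes. Col1a1, a chain of type I collagen, had 20.6 and Fn1 (fibronectin) 9.38.

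None of the 6 genes passed the test between males and females (edgeR quasi-likelihood, adjusted p = 1.0 for each), where 0.0871 percent of all genes tested were called. With all mice included, none had an unadjusted p under 0.05. Plaur averaged 2.03 ± 0.365 CPM in males and 2.73 ± 1.01 CPM in females, a log2 fold change of -0.43 ± 0.21 (unadjusted p = 0.055). Serpinf1 averaged 45.4 ± 11.3 CPM in males and 55.5 ± 15 CPM in females, a log2 fold change of -0.30 ± 0.16 (unadjusted p = 0.0752). For Plau, males had 11.8 ± 3.55 CPM and females 10.3 ± 3.25 CPM, a log2 fold change of 0.21 ± 0.13 (unadjusted p = 0.125). The other values were -0.11 ± 0.14 for Plat, 0.07 ± 0.09 for Serpine2 and -0.07 ± 0.10 for Fap. With errors of this size, the data do not show that the sexes were alike. The values also depended on the females with Y-linked reads. Without them the log2 fold change was -0.66 for Plaur, -0.29 for Plat, -0.33 for Serpinf1 and 0.3 for Plau. It was 0.05 for Serpine2 and -0.06 for Fap. That omission leaves a single knockout female, so these values are given without a test.

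The genotype difference did not pass a test of dependence on sex for any of the 6 genes, with 0.0 percent of all genes called in that test. The male value minus the female value was 0.37 ± 0.26 for Plat (unadjusted p = 0.177, adjusted p = 0.98). It was 0.22 ± 0.20 for Fap (unadjusted p = 0.278, adjusted p = 0.98), so the wider separation of Fap in males was within the error. For Plau it was -0.13 ± 0.27 (adjusted p = 0.995), for Plaur 0.11 ± 0.43, for Serpine2 -0.05 ± 0.19 and for Serpinf1 -0.13 ± 0.32. Most of these values had no stable sign. For Plat it was 0.18 without knockout replicate 8, 0.06 without both libraries whose clock genes stood apart and -0.06 when the 4 females carrying Y-linked reads were omitted. Without those 4 females it was 0.29 for Plau and -0.52 for Plaur. In that setting, for Plat too, replicate 2 was the only knockout female. For Plau it was 0.04 without both libraries whose clock genes stood apart. On omission of 1 mouse it ran from -0.08 to 0.41 for Plaur and from -0.36 to 0.05 for Serpinf1. Fap stayed positive, from 0.13 without knockout replicate 3 to 0.34 without knockout replicate 7. The median SE of this difference over all genes was 0.181, so differences of that size were not detectable.

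Mice of the same genotype and sex also differed among themselves. The SD of log2 CPM within these groups was 0.44 for Plaur, 0.371 for Serpinf1, 0.296 for Plat, 0.292 for Plau, 0.205 for Serpine2 and 0.192 for Fap. Counting error alone gives 0.242 for Plaur, 0.12 for Fap and 0.112 for Plau, so it is a part of the spread of these genes, and the spread seen exceeded it in each. It gives 0.0522 for Serpinf1, far below the spread seen. This variation, with the mean of each genotype and sex removed, was compared with marker lists for matrix, resting fibroblasts, endothelium, mural cells, macrophages, glia and cardiomyocytes in 42 relations. By Pearson's r, 2 of these passed (adjusted p under 0.05, permutation within groups), and both were of Serpinf1.

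Serpinf1 followed the matrix genes from mouse to mouse. Its r with the mean log2 CPM of the 30 matrix genes was 0.894 over 16 mice (permutation p = 0.00018, adjusted p = 0.00756), and Spearman's rho was 0.935 (permutation p = 3e-05, adjusted p = 0.00126). All 16 mice lay on the same side of their group mean for Serpinf1 as for the matrix score. The mouse lowest in matrix score, Tln2-null replicate 8, deviated by -0.87 in matrix and -0.54 in Serpinf1 on the log2 scale. The mouse highest in matrix score, knockout replicate 2, deviated by 0.81 in matrix and 0.28 in Serpinf1, while Serpinf1 itself was highest in Tln2-null replicate 6, at 0.58. Without the 2 mice farthest in matrix score r was 0.884, and omission of any 1 mouse left 0.858 to 0.912. It was 0.938 without the 4 females with Y-linked reads and 0.865 without both libraries whose clock genes stood apart. The slope was 0.6 ± 0.09 log2 units of Serpinf1 per log2 unit of matrix score.

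The relation had the same sign in each genotype. In the knockout r was 0.867 (exact permutation p = 0.0174, adjusted p = 0.237 over 84 relations within genotypes), and in Tln2-null it was 0.933 (exact permutation p = 0.00694, adjusted p = 0.194). Across single genes, which are not independent replicates, r with Serpinf1 was positive for 30 of 30 matrix genes and above 0.5 for 24. It ran from 0.00356 for Thbs2 (thrombospondin-2) to 0.94 for Bgn (biglycan), with a median of 0.809. Sequencing depth did not go with either measure: r with log2 total counts was 0.121 for Serpinf1 (permutation p = 0.662, adjusted p = 0.828 over 5 relations) and 0.0615 for the matrix score (permutation p = 0.834, adjusted p = 0.834). Resting fibroblast markers moved with the matrix score (r = 0.779, permutation p = 0.00218, adjusted p = 0.00915), and Serpinf1 stood near the threshold with them. Its r with resting fibroblast markers was 0.673 (permutation p = 0.00715, adjusted p = 0.1), and its rho was 0.738 (permutation p = 0.00284, adjusted p = 0.0398), which passed. Without Tln2-null replicate 1 the r was 0.78 and passed, and without the 2 mice farthest in that score it was 0.531. The part of fibroblast number in the relation was not tested.

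The 250 bases before the start of Serpinf1 (RefSeq, GRCm38.p6, chr11:75422624-75422873, minus strand, 5′ to 3′) are shown because this gene carries that relation.
Serpinf1: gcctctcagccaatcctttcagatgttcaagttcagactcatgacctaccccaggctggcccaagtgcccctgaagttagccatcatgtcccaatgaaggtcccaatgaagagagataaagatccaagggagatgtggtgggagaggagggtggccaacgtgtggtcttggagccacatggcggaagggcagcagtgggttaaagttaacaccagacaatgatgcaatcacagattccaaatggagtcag
Searched on both strands for the letters of the TATA box, SP1, AP-1 and TEAD motifs, the window held none of them and so has no capitals. Its GC content was 51.6 percent. Of 32851 windows of the same length, 12.4 percent held the TATA box letters TATAAA. The SP1 letters GGGCGG were in 32.7 percent, the AP-1 letters TGANTCA in 6.75 percent and the TEAD letters GGAATG in 12.6 percent.

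The second relation was with glial markers. The r of Serpinf1 with the mean of 7 glial genes, among them Sox10 of Schwann cells, was -0.876 (permutation p = 0.00045, adjusted p = 0.00945), with rho = -0.876 (adjusted p = 0.0105). It was -0.661 in the knockout (exact permutation p = 0.0903, adjusted p = 0.282) and -0.936 in Tln2-null (exact permutation p = 0.00174, adjusted p = 0.0729), and -0.799 without the 2 mice farthest in glial score. Without the 4 females with Y-linked reads it was -0.928, and without both libraries whose clock genes stood apart -0.865. Summed glial markers came to 20.4 to 27.2 CPM in the knockout and 20 to 31.5 CPM in Tln2-null. The glial score itself ran against the matrix score (r = -0.778, permutation p = 0.00366, adjusted p = 0.00915), so the relations of Serpinf1 with matrix and with glia are not separate observations.

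Plau and Fap, whose genotype differences ran opposite to those of the matrix genes, showed no relation with them from mouse to mouse that passed. For Plau r with the matrix score was -0.178 (permutation p = 0.537, adjusted p = 0.664; rho -0.132), and 7 of 16 mice lay on the same side for both. It was -0.666 in the knockout (exact permutation p = 0.099, adjusted p = 0.282) and 0.229 in Tln2-null (exact permutation p = 0.606, adjusted p = 0.78), and -0.167 without the 2 farthest mice. It had no stable size or sign: r was -0.428 without Tln2-null replicate 1, -0.342 without Tln2-null replicate 8, 0.00963 without knockout replicate 2 and 0.186 when the 4 females carrying Y-linked reads were omitted. For Fap r was 0.0813 (permutation p = 0.806, adjusted p = 0.868; rho 0.0853), with 11 of 16 mice on the same side, and it was -0.234 in the knockout and 0.401 in Tln2-null. It ran from -0.0279 without Tln2-null replicate 6 to 0.305 without knockout replicate 7, and was 0.484 without the 4 females with Y-linked reads. Whether these correlations differ from that of Serpinf1 was not tested. Serpine2 had r = 0.546 (permutation p = 0.0589, adjusted p = 0.225), Plat 0.239 (adjusted p = 0.635) and Plaur -0.0669 (adjusted p = 0.877). Plat ran from -0.0159 without knockout replicate 2 to 0.556 without Tln2-null replicate 8, and Plaur from -0.452 without knockout replicate 2 to 0.164 without Tln2-null replicate 8. When the 4 females carrying Y-linked reads were omitted, r was -0.193 for Plat and -0.786 for Plaur, neither of which passed.

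**Figure D3:**
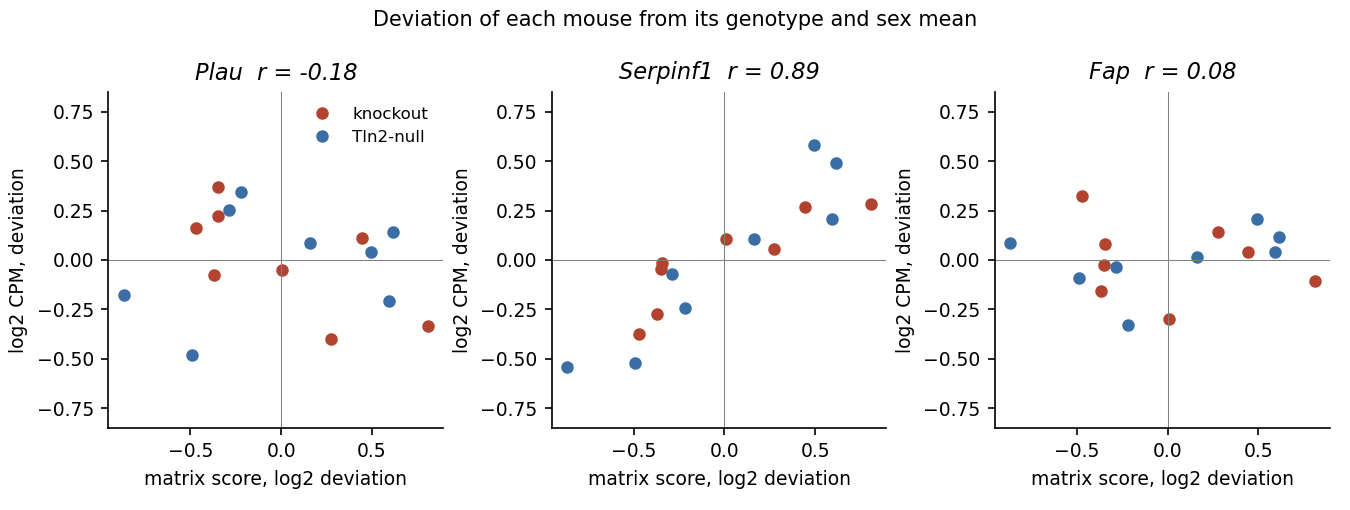
Deviation of log2 CPM of Plau, Serpinf1 and Fap (vertical axes) from the mean of the mouse's genotype and sex, against the same deviation of the 30-gene matrix score (horizontal axes), with 1 point per mouse, red for the knockout and blue for Tln2-null. Serpinf1 rises along the score in both genotypes (r = 0.894), while the points of Plau (r = -0.178) and Fap (r = 0.0813) show no such line.

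With the other cell type lists no relation of the remaining members passed over all 16 mice. The nearest were Plaur with endothelial markers (r = 0.719, permutation p = 0.0111, adjusted p = 0.116), Plau with endothelial markers (r = -0.612, permutation p = 0.0187, adjusted p = 0.156) and Plaur with mural markers (r = 0.641, adjusted p = 0.156). Some passed when mice were left out: Plau with endothelial markers without knockout replicate 8 (r = -0.78) and without both libraries whose clock genes stood apart (r = -0.77), and Plaur with mural markers without knockout replicate 5 (r = 0.82). Among the 15 pairs of the 6 genes none passed. For the urokinase gene and its receptor, Plau with Plaur, r was -0.536 (permutation p = 0.0362, adjusted p = 0.181). For Plau with Plat, the other activator, r was -0.585 (permutation p = 0.0276, adjusted p = 0.181). The Plau and Plat value was -0.82 in the knockout and -0.254 in Tln2-null, and -0.341 without the 2 farthest mice. For Plaur with Plat r was 0.639 (permutation p = 0.0281, adjusted p = 0.181). Without Tln2-null replicate 2, 1 pair passed, Plau with Plaur at r = -0.63. Plau and Fap, the pair named when the 6 genes were picked, had r = -0.00394 (permutation p = 0.989, adjusted p = 0.989).

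**Figure D4:**
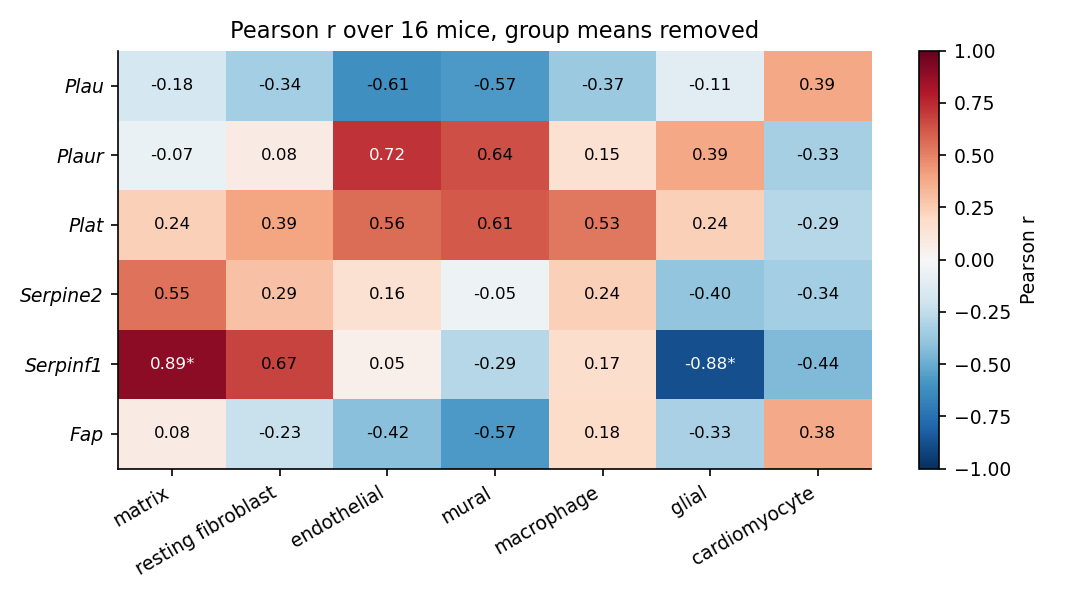
Pearson r over 16 mice between log2 CPM of each of the 6 genes (rows) and the mean log2 CPM of each marker list (columns), after removal of genotype and sex means, with colour from -1 to 1 and an asterisk where the adjusted p over 42 relations was under 0.05. Only Serpinf1 with matrix (0.894) and with glia (-0.876) carry an asterisk.

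The genes most like each member over the 16 mice, among genes with at least 5 CPM, are given as descriptions without a test. For Serpinf1 these were Bgn (r = 0.94), Col12a1 (0.933) and Frzb (0.928), of which biglycan and collagen XII are matrix components and Frzb a secreted Wnt antagonist. For Plau they were Fzd5 (0.859), Dtd1 (0.853) and Adprhl1 (0.853), and for Fap Wdr5b (0.853), Slc35f5 (0.841) and Zfp330 (0.83). For Plaur they were Wt1 (0.918), Tra2a (0.917) and Fgf11 (0.904), for Plat Tmod3 (0.941) and Dll1 (0.886), and for Serpine2 Ap2b1 (0.845), Dot1l (0.844) and Gpc3 (0.844). Each was among the highest of 10711 or 10712 genes compared over 16 mice, so values of this size are found for every member.

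The rest of the plasminogen system was read from a list of 71 other genes, of which 53 had enough counts to be tested. None passed between genotypes, against 0.0 percent of all genes tested in the edgeR quasi-likelihood fit, 0.123 percent in DESeq2 and 0.0799 percent in limma-voom. At an unadjusted p under 0.05 there were 7, of which 3 were higher and 4 lower in the knockout, where all genes gave 264 higher and 436 lower among 13775. The median log2 fold change was -0.0296 over the 53 genes and -0.00273 over all genes. In contrast the 30 matrix genes were lower in the knockout in 30 of 30 cases, with a median of -0.551, 19 at an unadjusted p under 0.05 and 0 called. Among these Col1a1 had 97.9 ± 40.1 CPM in the knockout and 146 ± 39.5 CPM in Tln2-null (log2 fold change -0.57 ± 0.21, adjusted p = 0.823), Col3a1 284 ± 131 CPM in the knockout and 385 ± 155 CPM in Tln2-null (-0.42 ± 0.24, adjusted p = 0.935), and Fn1 72.2 ± 35.1 CPM in the knockout and 86.9 ± 28.8 CPM in Tln2-null (-0.28 ± 0.22, adjusted p = 0.942). The Fn1 mean in the knockout includes 1 female at 153 CPM, where the knockout median was 61.7 CPM. That all 30 were lower was known when the list was used. Markers of other cells differed in direction beside them: 11 of 15 resting fibroblast genes were lower in the knockout (median -0.202, 8 lower and 1 higher at an unadjusted p under 0.05, 0 called), and 10 of 10 cardiomyocyte genes were higher (median 0.073). Their part in the matrix values was not tested.

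Plasminogen itself was barely detected: Plg had 1 count in all 16 libraries together. The fibrinogen chains Fga and Fgg had 0 and Fgb had 1, the antiplasmin gene Serpinf2 had 13 and the carboxypeptidase gene Cpb2 had 0. All of these are made mainly in liver. Serpinb2, an inhibitor of urokinase, had 7 counts. Of the upstream proteases only St14 (matriptase, an activator of pro-urokinase) was tested, at 0.409 ± 0.2 CPM in the knockout and 0.635 ± 0.29 CPM in Tln2-null (log2 fold change -0.62 ± 0.34, adjusted p = 0.935). Eno1, which encodes a plasminogen-binding enolase, had 3 counts, and its near-identical copy Eno1b makes that value uncertain.

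Of the 16 cell-surface docks and clearance receptors tested, 14 had a lower and 2 a higher value in the knockout, with a median log2 fold change of -0.109. Of all 13775 genes tested, 7052 were lower and 6723 higher. Several of the 14 lay well within their error, such as Sorl1 (-0.01 ± 0.07) and Lrpap1 (-0.03 ± 0.06). The shared direction was not tested. Lrp1, the endocytic receptor that clears protease and inhibitor complexes, averaged 176 ± 47.4 CPM in the knockout and 224 ± 35.7 CPM in Tln2-null (-0.35 ± 0.14, adjusted p = 0.912). Mrc2, the collagen-uptake receptor that associates with the urokinase receptor, averaged 33.8 ± 7.13 CPM in the knockout and 42.6 ± 7.41 CPM in Tln2-null (-0.34 ± 0.12, adjusted p = 0.808), and 7 of 8 knockout mice were below the Tln2-null mean. Itgb5, an integrin chain that binds vitronectin, averaged 177 ± 14.7 CPM in the knockout and 198 ± 27.7 CPM in Tln2-null (-0.16 ± 0.08, adjusted p = 0.935). None of these differences passed.

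The 9 inhibitors tested were split, 5 with higher and 4 with lower values, at a median of 0.0403. Tfpi, the inhibitor of the tissue factor pathway, had 116 ± 20.7 CPM in the knockout and 99.8 ± 11.2 CPM in Tln2-null (log2 fold change 0.22 ± 0.10, adjusted p = 0.935). Thbd (thrombomodulin) had a log2 fold change of 0.07 ± 0.10, and Serpini1 (neuroserpin, an inhibitor of tissue plasminogen activator) one of -0.04 ± 0.09.

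Among 16 substrates of plasmin and its activators, 7 had higher and 9 lower values, at a median of -0.0977. Mmp3 (stromelysin-1, which plasmin activates) had 2.34 ± 0.75 CPM in the knockout and 4.46 ± 2.32 CPM in Tln2-null, a log2 fold change of -0.93 ± 0.27 (unadjusted p = 0.00308, adjusted p = 0.598), with 8 of 8 knockout mice below the Tln2-null mean. That mean includes 1 female at 9.47 CPM, and the highest knockout mouse (3.74 CPM) lay above the Tln2-null median of 3.55 CPM. These levels rest on 23 to 60 counts per knockout library and 36 to 134 per Tln2-null library. Mmp14, a membrane-bound metalloproteinase, had 24 ± 8.14 CPM in the knockout and 31.2 ± 5.94 CPM in Tln2-null (-0.38 ± 0.17, adjusted p = 0.935). Bdnf, a neurotrophin whose precursor plasmin cleaves, had 14.6 ± 2.15 CPM in the knockout and 11.7 ± 2.28 CPM in Tln2-null (0.32 ± 0.11, adjusted p = 0.804). The 5 partners of PEDF had 2 higher and 3 lower values at a median of -0.00558. Pnpla2, the triglyceride lipase that PEDF binds, had 466 ± 55.1 CPM in the knockout and 484 ± 106 CPM in Tln2-null (-0.05 ± 0.11, adjusted p = 0.975). The log2 fold change was 0.06 ± 0.10 for Plxdc2 and 0.04 ± 0.06 for the Wnt co-receptor gene Lrp6.

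Of 6 relatives of Fap tested, 3 had higher and 3 lower values, at a median of -0.0371. The listed substrates Fgf21 and Npy had 7 and 3 counts over all libraries and were not tested. Dpp4, a dipeptidyl peptidase and the closest relative of Fap, had 3.75 ± 0.738 CPM in the knockout and 2.55 ± 0.422 CPM in Tln2-null, a log2 fold change of 0.56 ± 0.14. All 8 knockout mice were above the Tln2-null mean, and the difference did not pass (unadjusted p = 0.00101, adjusted p = 0.375). The intracellular relatives Dpp8 and Dpp7 had log2 fold changes of 0.06 ± 0.05 and -0.14 ± 0.12.

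**Figure D5:**
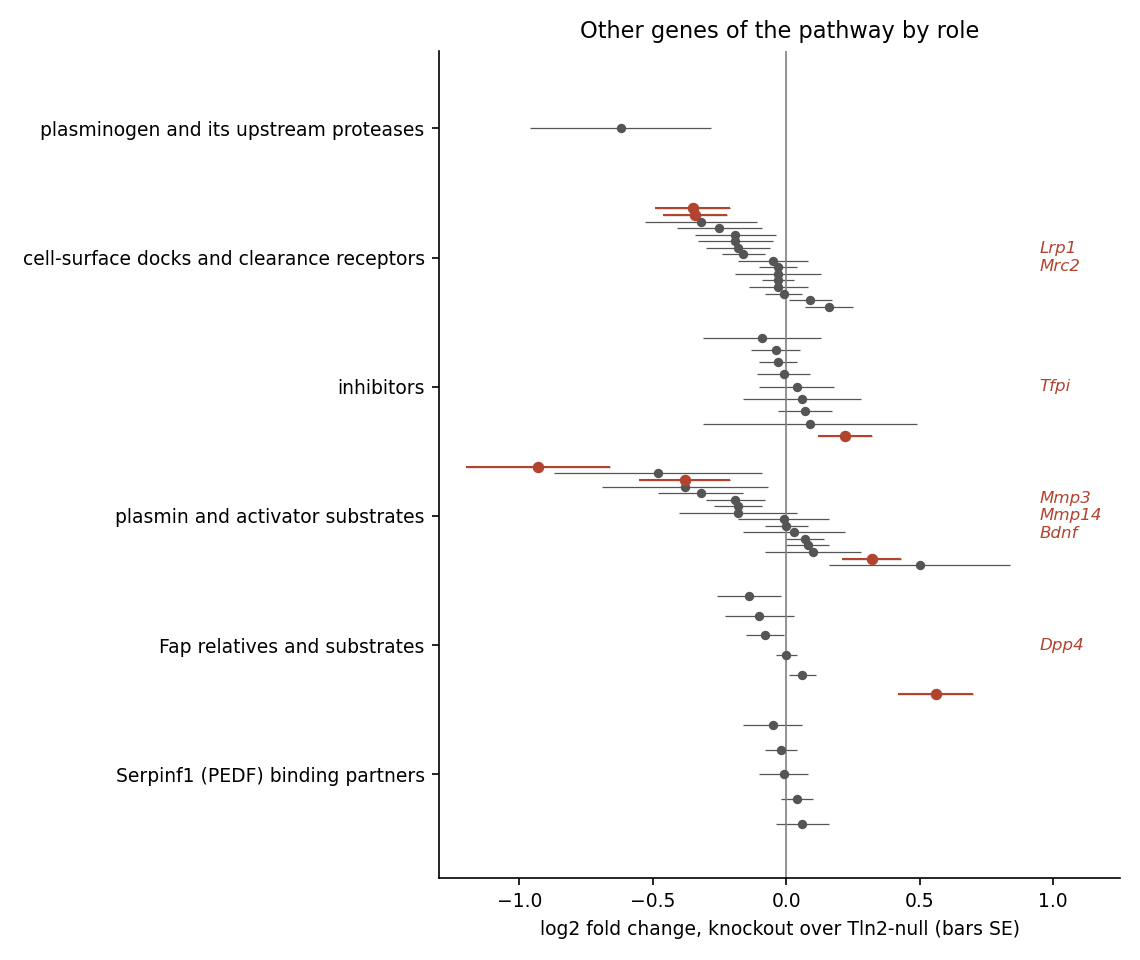
Log2 fold change of knockout over Tln2-null (horizontal axis, bars SE) for the 53 tested genes of the plasminogen system other than the 6, arranged by role, with 1 point per gene and in red the 7 genes with an unadjusted p under 0.05, whose names stand at the right from lowest to highest value. Docks and clearance receptors lie mostly below 0 (14 of 16, where 7052 of all 13775 genes tested were lower), some of them within their error. Mmp3 has the lowest value (-0.93), Dpp4 the highest of the red genes (0.56), and none passed after adjustment.

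Dpp4 (chromosome 2, 62330073 to 62412315) and Fap are 88620 bases apart, with 1 coding gene between them, Gcg, which had 0 counts. Within 250 kilobases of Fap, 3 other genes were tested and all had positive log2 fold changes: Dpp4, Gca (0.11 ± 0.10) and Ifih1 (0.03 ± 0.08), with 1 at an unadjusted p under 0.05 and 0 called. Of all 13775 genes tested, 6723 were higher in the knockout. Ifih1 lay within and Gca near 1 SE of 0, and nothing is read from the shared sign of these 3 genes. Around Plau, 12 other genes were tested within 250 kilobases, 6 with higher and 6 with lower values, from -0.25 for Synpo2l to 0.13 for Usp54, with 0 at an unadjusted p under 0.05. Vcl, the talin-binding vinculin next to this locus, had 187 ± 11 CPM in the knockout and 190 ± 25.6 CPM in Tln2-null (log2 fold change -0.02 ± 0.07). The neighbouring genes were named after their values were seen.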

How the data were processed

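RNA counts per gene symbol for 16 ventricles, as deposited by the authors, were the values tested. The authors also deposited a normalized signal, the counts divided by 1 size factor per library. Multiplied back, 100 percent came out whole (tolerance 0.001). An edgeR fit on these reads, chosen after seeing the data, called 0 genes between genotypes. DRAGEN, DESeq2 and mm10 are listed per the submitters' processing notes, with no role or version. The sources used here do not name the aligner, counter or annotation. In 26 entries the symbol had become a date, and 21 were restored from the normalized table.

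Counts were filtered (filterByExpr by genotype and sex, 13775 genes), scaled by TMM and tested with edgeR 4.0.16 (R 4.3.3), with genotype and sex as terms and, for the dependence on sex, 1 mean per group. p values were Benjamini-Hochberg adjusted over all genes and called under 0.05. SE was derived as |log2 fold change| divided by the root of F and is approximate. Correlations used log2 CPM (prior count 2) with genotype and sex means removed, 100000 permutations within groups, and all 576 arrangements within 1 genotype. A mesothelial list had 1 tested gene and gave no score, which left 42 relations. Exon lengths are unions over protein-coding GENCODE M21 transcripts, and promoter sequences RefSeq GRCm38.p6, which matched 3 of the 6 genes.

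The 6 genes, the lists and the tests were chosen with earlier results of these data known. Named were the 6 genes, the 3 genes most like each, up to 3 genes of lowest p per pathway role, and Col1a1, Col3a1 and Fn1; exceptions are stated, and a few genes are not reported here. Replicate numbers follow the order of the records. Alternatives were DESeq2 1.42.0 and its size factors, limma-voom (3.58.1), other filters and covariates, and omission of libraries. The fits were tested on simulated data.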

Additional observations from a re-analysis of the deposited data

Results flagged for a closer look

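Pnpla2, the lipase gene that PEDF binds, had 718 CPM in Tln2-null replicate 1, where the next highest of the 8 Tln2-null mice had 508 CPM and the lowest 366 CPM. The gap of this mouse to its neighbour was 0.597 of the range of the group, above the critical value of 0.526 for 8 samples. It was the only value marked in this way among 46 groups examined, and chance marks about 1 group in 20. Fn1 carries no mark here, yet its knockout group also had a high value. That was 153 CPM in a female, where the knockout median was 61.7 CPM and knockout males reached 67.0 CPM. Lack of a mark is therefore not read as lack of an extreme mouse.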

How the results depend on the processing

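For 30 results and 31 settings, 744 of 746 recomputed values kept their direction or lay within the spread. None of the 746 reversed a called value. The first count is lenient, includes call counts of 0, and does not measure stability. Without the 4 females with Y-linked reads, Plaur with the matrix score moved from -0.0669 to -0.786 and was counted as kept. The dependence of Plat on sex moved from 0.37 to -0.06 there and was also counted as kept. The number of member and list correlations that passed was 2, and 4 when genotype means alone were removed, which added Plaur with endothelial markers (r = 0.75) and Serpinf1 with resting fibroblasts (r = 0.70). It was 3 with Spearman's rho (adding Serpinf1 with resting fibroblasts) and 3 without both libraries whose clock genes stood apart (adding Plau with endothelial markers). Omission of 1 mouse gave 2 to 3 such correlations and 0 to 1 passing pairs of the 6 genes. The r of Serpinf1 with the matrix score was 0.865 to 0.938, and with glia -0.928 to -0.821, over the settings other than omission of 1 mouse, and -0.915 to -0.826 with glia on omission of 1 mouse. Over all genes, the genotype comparison called 0 in edgeR, 17 in DESeq2 (3 higher and 14 lower in the knockout) and 11 in limma-voom (2 higher and 9 lower), and none of the 53 pathway genes was among them. The sex comparison called 12 genes in edgeR, 21 in DESeq2 and 12 in limma-voom, none of the 6. No paired analysis was possible because the labels give the 2 genotypes no shared replicate numbers. Depth limits Plaur most, at 25 to 87 counts per library.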

Other observations

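Within genotypes, some relations of Plaur and Serpinf1 had opposite signs. For Plaur with the matrix score r was 0.759 in the knockout (exact permutation p = 0.0642, adjusted p = 0.282 over 84 relations) and -0.802 in Tln2-null (exact permutation p = 0.0399, adjusted p = 0.271). For Serpinf1 with mural markers, which label pericytes and smooth muscle, r was 0.673 in the knockout (exact permutation p = 0.108, adjusted p = 0.292) and -0.891 in Tln2-null (exact permutation p = 0.0104, adjusted p = 0.219). The differences between genotypes were not tested, and these relations were picked after their values were seen.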
